A study of Rattus norvegicus with 8 samples.

Results

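A set of 9 genes best known from heart muscle was followed in the rat diaphragm, the sheet of skeletal muscle that drives inspiration: *Myh6*, *Actc1*, *Tnnt2*, *Tnni3*, *Ryr2*, *Gata4*, *Nppa*, *Nppb* and *Gja1*. They were chosen by gene symbol, and all 9 were found among the 17055 rows of the count table. Total RNA from the diaphragm of 8 Sprague-Dawley rats was sequenced 16 weeks after chest surgery, 1 library per animal. Of these, 4 rats (MI, replicates 1 to 4) had a myocardial infarction made by tying the left anterior descending coronary artery, and 4 (Sham, replicates 5 to 8) had the same operation with no tie, so that anaesthesia, ventilation and opening of the chest were common to both groups. The labels give no sex and no age beyond the time since surgery, and they state neither infarct size nor heart function. Libraries held between 7941402 and 24967251 counts. Values are counts per 1000000 (CPM) on scaled library totals, and a floor of 3 counts corresponded to 0.116 to 0.369 CPM. The floor covers counting error only. Transcript lengths were not used, so levels are compared between libraries and not between genes.

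Heart and skeletal muscle build the same contractile machine from related but separate genes. *Myh6* encodes the fast cardiac myosin heavy chain, *Actc1* cardiac alpha-actin, and *Tnnt2* and *Tnni3* the cardiac troponins T and I, which hold the thin filament shut until calcium arrives. *Ryr2* is the calcium release channel of the heart's sarcoplasmic reticulum, *Gata4* a transcription factor of the developing heart and of other tissues, *Nppa* and *Nppb* the natriuretic peptide hormones released by stretched heart muscle, and *Gja1* connexin 43, a gap junction protein that many other cell types also make. Several of the sarcomere genes are also used by skeletal muscle before birth or during repair, and *Myh6* is known from specialised fibres such as those of the jaw and of muscle spindles.

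The members fell into those with counts above the floor and those without. *Myh6*, *Actc1*, *Tnnt2*, *Tnni3*, *Ryr2*, *Gata4* and *Gja1* were above 3 counts in all 8 libraries, which also held after each library was thinned to the smallest total. *Nppa* and *Nppb* were at or under the floor in every library. None of the 7 genes that passed the filter on low counts differed between MI and Sham in edgeR's quasi-likelihood test, where 0 of 10522 genes (0%) passed an adjusted p of 0.05. Of the 7, 4 had a log2 fold change above 0 and 3 below, beside 48.7% of all genes above 0. None reached an unadjusted p of 0.05 either, a level that 8.14% of all genes tested reached. DESeq2 called 0 of the 7 (0.133% of all genes) and limma-voom 0 (0% of all genes). For each of the 7 the MI and Sham values overlapped, whereas they did not overlap for 4.55% of all genes. In a bulk sample, fewer cells of a type and less RNA per cell cannot be told apart. Each library comes from its own animal, and p-values set the difference between MI and Sham against the spread between animals within the groups. In edgeR that spread is estimated with information shared over all genes tested.

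**Figure D1:**
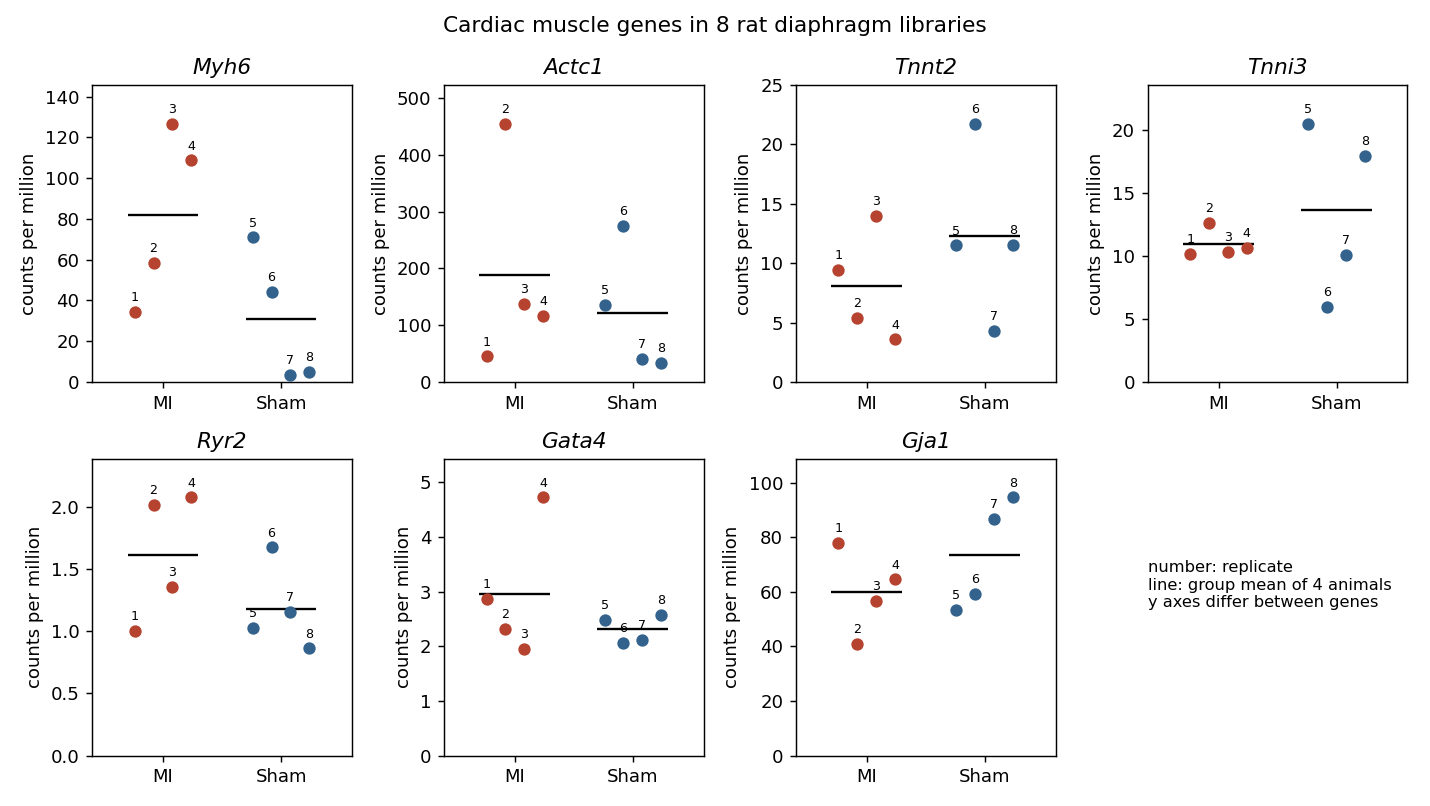
Level of the 7 detected genes in each library (y axis, CPM, a separate scale for each gene) for MI and Sham. Points are animals with their replicate number and lines are group means of 4 animals; *Myh6* in Sham replicates 7 and 8 lies near 0 and *Actc1* in MI replicate 2 stands at 455.

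*Myh6* varied widely between animals. In MI it was at 34.4, 58.2, 127 and 109 CPM in replicates 1 to 4, and in Sham at 71.0, 44.1, 3.28 and 4.92 CPM in replicates 5 to 8. All 4 MI animals and Sham replicates 5 and 6 were between 34.4 and 127 CPM, and Sham replicates 7 and 8 lay far below the lowest of them. Those low values rest on 85 and 40 counts, well above the floor, and replicate 7 was the most deeply sequenced library. From lowest to highest library *Myh6* spanned 38.6-fold, and its coefficient of variation of 79.3% was reached or passed by 0.618% of genes tested. A span of at least 10-fold was seen in 1.03% of all genes tested.

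The group means of *Myh6* were 82.0 ± 43.0 CPM in MI and 30.8 ± 32.7 CPM in Sham (SD, n = 4 each). The log2 fold change was 1.40 ± 0.99 (SE) with an adjusted p of 0.707 in edgeR, so the difference lay within the spread between animals. It was 1.01 without Sham replicate 7, 1.07 without Sham replicate 8 and 1.11 without MI replicate 3. Without Sham replicate 5 it was 2.20 (adjusted p = 0.556). With limma-voom it was 2.31, with an unadjusted p of 0.0230 and an adjusted p of 0.570. The animals' numbers fall in a lower and a higher range, and *Myh6* went opposite ways within them. Among animals 253 to 256 the mean was 46.3 CPM in 2 MI animals against 71.0 in 1 Sham animal, and among animals 275 to 288 it was 118 CPM in 2 MI animals against 17.4 in 3 Sham animals.

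In the GRCr8 rat annotation *Myh6* is the direct neighbour of *Myh7*, the slow and cardiac beta myosin heavy chain, which is a main myosin of diaphragm. The 2 genes are close in sequence, and how reads that fit both were counted is not given in the sources used here. *Myh6* counts came to 1.51%, 1.25%, 3.25% and 3.39% of *Myh7* counts in MI replicates 1 to 4. In Sham replicates 5 to 8 they came to 1.68%, 1.17%, 0.0659% and 0.0876%. The percentage thus varied 51.5-fold, and in Sham replicate 7 only 85 *Myh6* counts stood beside 129044 *Myh7* counts. *Myh7* itself was at 3514 ± 1016 CPM in MI and 4645 ± 818 in Sham (SD, n = 4 each; log2 fold change -0.40 ± 0.21, edgeR adjusted p = 0.639).

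*Actc1* had the largest coefficient of variation of the 7 tested members. In MI it was at 44.9, 455, 137 and 117 CPM in replicates 1 to 4, and in Sham at 136, 274, 39.9 and 33.7 CPM in replicates 5 to 8. MI replicate 2 was highest and Sham replicate 6 next, while MI replicate 1 and Sham replicates 7 and 8 were lowest, so high and low animals occurred in both groups. The span was 13.5-fold and the coefficient of variation 93.5%, which 0.371% of genes tested reached. MI replicate 2 alone held 36.8% of the CPM summed over the 8 libraries.

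The means of *Actc1* were 188 ± 182 CPM in MI and 121 ± 112 in Sham (SD, n = 4 each). The fitted log2 fold change was 0.64 ± 0.93 (SE; edgeR adjusted p = 0.860). The sign depended on 1 animal: without MI replicate 2 the log2 fold change was -0.29, and without Sham replicate 6 it was 1.43. Without Sham replicate 7 or 8 it was 0.33. *Actc1* had from 274 counts (Sham replicate 8) to 7447 counts (MI replicate 2). Its skeletal relative *Acta1* had from 389273 counts (MI replicate 4) to 1069725 counts (Sham replicate 7). The log2 fold change of *Acta1* was -0.08 ± 0.11 (SE; edgeR adjusted p = 0.842). Whether reads of *Acta1* reached the *Actc1* row was not tested.

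Both animals with the highest *Actc1* were also highest for *Ankrd1*, a stretch-responsive protein of heart and skeletal muscle, at 14.4 CPM in MI replicate 2 and 9.97 CPM in Sham replicate 6. MI replicate 4 was close behind the latter for *Ankrd1*, at 9.91 CPM. *Tmem8c*, the older name of the myoblast fusion protein myomaker, had 25 counts in MI replicate 2 and at most 5 in any other library. Sham replicate 6 had 4 *Tmem8c* counts. Other embryonic and repair genes were mixed in MI replicate 2. *Myh3* was highest there, at 159 CPM, while *Myog* and *Myod1* were at 28.5 and 17.1 CPM, below their Sham means of 40.4 and 24.2 CPM. These *Tmem8c* and *Ankrd1* values were singled out after they were seen.

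**Figure D2:**
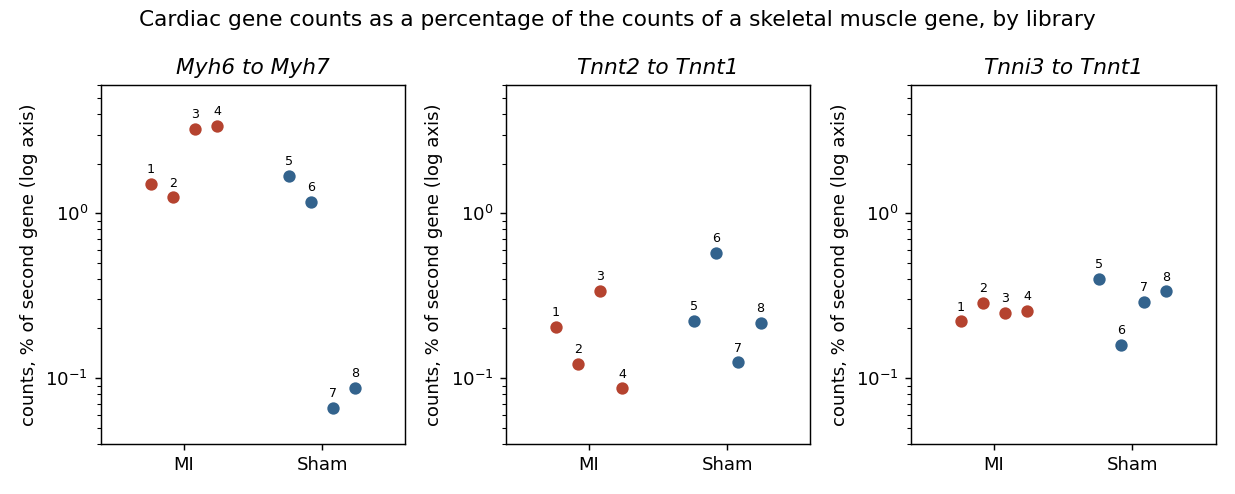
Counts of 3 cardiac genes as a percentage of the counts of a skeletal muscle gene in the same library (y axis, percent, log scale) for MI and Sham. Points are animals with their replicate number; *Myh6* relative to *Myh7* runs from 0.0659% to 3.39%, while *Tnni3* relative to *Tnnt1* stays between 0.158% and 0.398%.

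The cardiac troponins varied less between libraries than *Myh6* and *Actc1*. *Tnnt2* was at 9.42, 5.38, 14.0 and 3.57 CPM in MI replicates 1 to 4 and at 11.5, 21.7, 4.32 and 11.6 CPM in Sham replicates 5 to 8. Sham replicate 6 was highest and MI replicate 4 lowest, a 6.09-fold span. The means were 8.09 ± 4.62 CPM in MI and 12.3 ± 7.17 in Sham (SD, n = 4 each), and the log2 fold change was -0.58 ± 0.55 (SE; edgeR adjusted p = 0.769). It stayed below 0 with each library left out in turn, from -0.12 without Sham replicate 6 to -0.96 without MI replicate 3. It was -0.36 without MI replicate 4 and -0.89 without Sham replicate 7.

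*Tnni3* was at 10.2, 12.7, 10.3 and 10.6 CPM in MI replicates 1 to 4 and at 20.5, 5.98, 10.1 and 18.0 CPM in Sham replicates 5 to 8. The 4 MI animals lay close together inside the range of the Sham animals. The means were 10.9 ± 1.16 CPM in MI and 13.6 ± 6.75 in Sham (SD, n = 4 each), with a log2 fold change of -0.30 ± 0.34 (SE; edgeR adjusted p = 0.815). It was -0.02 without Sham replicate 5, -0.14 without Sham replicate 8 and -0.07 with limma-voom. Without Sham replicate 6 it was -0.54 with an unadjusted p of 0.0379, and the adjusted p was 0.741.

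In the GRCr8 annotation *Tnni3* lies directly beside *Tnnt1*, the slow skeletal troponin T, an abundant diaphragm transcript. *Tnni3* counts were 0.221%, 0.286%, 0.249% and 0.257% of *Tnnt1* counts in MI replicates 1 to 4. In Sham replicates 5 to 8 they were 0.398%, 0.158%, 0.291% and 0.335%. This percentage varied 2.52-fold over the 8 libraries, compared with 51.5-fold for *Myh6* and *Myh7* and 6.65-fold for *Tnnt2* and *Tnnt1*. The CPM of the members themselves spanned 3.43-fold for *Tnni3*, 38.6-fold for *Myh6* and 6.09-fold for *Tnnt2*, in the same order. *Tnni3* relative to *Tnni1*, the slow skeletal troponin I, varied 2.61-fold. The libraries do not keep strand, and whether reads of *Tnnt1* reached the *Tnni3* row was not tested.

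The skeletal troponins had log2 fold changes near 0, and none passed the test. *Tnnt1* had a log2 fold change of -0.04 ± 0.14, *Tnnt3*, fast troponin T, 0.06 ± 0.17, *Tnni1* -0.05 ± 0.14, and *Tnni2*, fast troponin I, 0.06 ± 0.15 (SE, edgeR). The coefficient of variation was 14.6% for *Tnnt1* and 18.4% for *Tnnt3*, beside a median of 14.7% for all genes tested. Of the 11 skeletal relatives listed, 9 were tested, 4 above 0 and 5 below, and their median log2 change was -0.04 beside -0.0070 for all genes. None had an unadjusted p under 0.05. The myosins *Myh1* (type IIX) and *Myh2* (type IIA) had log2 fold changes of -0.23 ± 0.29 and -0.13 ± 0.20, and *Tnnc2*, fast troponin C, 0.07 ± 0.14. *Myh4*, the type IIB myosin, had a wider spread than *Myh6*: it was at 3700, 21.1, 1018 and 11.4 CPM in MI replicates 1 to 4 and at 196, 2083, 1435 and 138 CPM in Sham replicates 5 to 8. That is a 324-fold span and a coefficient of variation of 121%, with high and low animals in both groups. Its log2 fold change was 0.30 ± 1.79 (SE) and ran from -1.46 to 1.03 with a library left out. *Myh4* falls outside the rule for naming genes and was chosen after its values were seen. *Ryr1* and *Ryr3*, also in that list, were not analysed here.

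*Ryr2* was near the limit of what this depth can compare, with 7 to 33 counts a library. It was at 1.002, 2.02, 1.35 and 2.07 CPM in MI replicates 1 to 4 and at 1.03, 1.67, 1.16 and 0.861 CPM in Sham replicates 5 to 8. MI replicates 2 and 4 were above every Sham library and MI replicate 1 was below 3 of the 4. The log2 fold change was 0.41 ± 0.32 (SE; edgeR adjusted p = 0.730), between 0.25 without MI replicate 2 and 0.62 without Sham replicate 6. With a floor of 10 counts in place of more than 3, *Ryr2* dropped below it in Sham replicate 8, and 6 of the 9 genes were above it in all libraries.

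None of the tested partners of the ryanodine receptors passed the test between MI and Sham. Of 13 listed, 11 were tested, 6 above 0 and 5 below, and their median log2 change was 0.02. None had an unadjusted p under 0.05. The calcium buffer *Casq1* was at -0.16 ± 0.14, the triad protein *Trdn* at 0.06 ± 0.14 and the luminal calcium binder *Hrc* at 0.02 ± 0.09. The sodium-calcium exchanger *Slc8a1* was at 0.19 ± 0.12, the muscle calcium channel *Cacna1s* at -0.24 ± 0.13 and its cardiac and smooth muscle relative *Cacna1c* at 0.36 ± 0.28. *Fkbp1b*, the small protein that binds the cardiac channel, had at most 4 counts in any library.

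*Gata4* was counted at a low level in every animal. It was at 2.87, 2.32, 1.95 and 4.73 CPM in MI replicates 1 to 4 and at 2.49, 2.06, 2.12 and 2.58 CPM in Sham replicates 5 to 8, from 21 to 55 counts. MI replicate 4 was the highest library and MI replicate 3 the lowest, so both ends of the range were MI animals. The means were 2.97 ± 1.23 CPM in MI and 2.31 ± 0.262 in Sham (SD, n = 4 each), and the log2 fold change was 0.34 ± 0.28 (SE; edgeR adjusted p = 0.739). Without MI replicate 4 it was 0.06. The coefficient of variation was 33.9%, which 12.0% of genes tested reached, and the span from lowest to highest library was 2.43-fold. That share is over genes of every level, and at 21 to 55 counts counting error is part of the *Gata4* spread.

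Other members of the GATA group and their partner factors were described as a list of 12, of which 7 were tested. Of these, 2 were above 0 and 5 below, and their median log2 change was -0.35, and between -0.41 (without Sham replicate 6) and -0.07 (without Sham replicate 8) with a library left out. Among the 7, 2 had an unadjusted p under 0.05, both lower in MI, beside 4.47% of all genes in that direction. *Gata2*, known from endothelium and blood precursors, was at 7.48 ± 0.613 CPM in MI and 10.3 ± 0.597 in Sham (SD, n = 4 each), with every MI animal below every Sham animal (log2 fold change -0.47 ± 0.12, edgeR unadjusted p = 0.00276, adjusted p = 0.601). The groups did not overlap for 4.55% of all genes. *Mef2d*, a muscle transcription factor, was at -0.39 ± 0.17 (edgeR unadjusted p = 0.0403, adjusted p = 0.601). *Zfpm2*, which binds GATA4, was at -0.36 ± 0.29, *Srf* at -0.13 ± 0.11 and *Mef2a* at 0.06 ± 0.14. None passed after adjustment over all genes.

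The natriuretic peptide genes were all but absent. *Nppa* had 1 count in 114851338 over the 8 libraries, in Sham replicate 5, and 0 in the other 7. *Nppb* had 2 counts, 1 in MI replicate 2 and 1 in Sham replicate 5. Neither passed the filter, and because both groups were under the floor no fold change is given. Within any single library, a true level below its floor of 0.116 to 0.369 CPM could not have been told from 0.

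*Nppa* and *Nppb* lie side by side in the rat genome and are textbook targets of GATA4 in heart muscle. Their promoters are shown because *Gata4* was detected in every library and they were not. The promoter of *Tnni3*, a GATA4 target in the heart that was detected in every library, is shown beside them. Each sequence is the 250 bases before the RefSeq start in GRCr8, which is not the build used for the counts, with GATAA and its reverse complement TTATC in capitals.
Nppa (chr5:163711934-163712183, plus strand): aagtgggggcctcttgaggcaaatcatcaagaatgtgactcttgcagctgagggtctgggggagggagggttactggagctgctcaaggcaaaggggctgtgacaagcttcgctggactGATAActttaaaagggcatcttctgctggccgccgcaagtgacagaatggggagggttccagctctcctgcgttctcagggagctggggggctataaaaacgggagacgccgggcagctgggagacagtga
Nppb (chr5:163699758-163700007, plus strand): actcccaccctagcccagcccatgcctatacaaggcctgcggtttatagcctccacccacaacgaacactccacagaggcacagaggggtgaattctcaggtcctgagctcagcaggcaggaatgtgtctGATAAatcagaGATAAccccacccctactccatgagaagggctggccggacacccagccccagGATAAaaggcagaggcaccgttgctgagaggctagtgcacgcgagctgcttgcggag
Tnni3 (chr1:78342321-78342570, plus strand): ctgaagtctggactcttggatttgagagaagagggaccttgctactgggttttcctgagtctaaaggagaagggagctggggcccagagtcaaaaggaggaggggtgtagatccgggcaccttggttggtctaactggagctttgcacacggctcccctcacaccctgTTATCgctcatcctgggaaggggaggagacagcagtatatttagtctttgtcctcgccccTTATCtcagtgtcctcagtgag

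The *Nppa* window held 1 match, the *Nppb* window 3 and the *Tnni3* window 2. Among the other members, the *Gja1* window and the first of 2 listed *Tnnt2* starts held 1 each, the *Myh6*, *Actc1* and *Ryr2* windows held 0, and *Gata4* had no entry. Of 33469 rat promoters of the same length, 23.5% held at least 1 match and 4.49% at least 2. A match describes the letters only, and the genes with matches include both undetected and detected members.

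The receptors for these hormones were expressed. Of 8 genes listed for the natriuretic system, 7 were tested, 3 above 0 and 4 below, and their median log2 change was -0.07. None had an unadjusted p under 0.05. *Npr1*, the receptor for both heart hormones, was at 9.42 ± 1.20 CPM in MI and 11.5 ± 2.03 in Sham (SD, n = 4 each; log2 fold change -0.28 ± 0.15). *Npr2*, the receptor for the related peptide *Nppc*, was at -0.09 ± 0.09, and the downstream kinase *Prkg1* at 0.28 ± 0.15. *Mme*, a peptidase that degrades these hormones, was at 0.28 ± 0.19. *Corin*, the heart protease that processes the *Nppa* product, had at most 2 counts in any library.

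*Gja1* was well counted, with 560 to 2250 counts a library. It was at 77.9, 41.0, 56.6 and 64.6 CPM in MI replicates 1 to 4 and at 53.5, 59.3, 86.8 and 94.6 CPM in Sham replicates 5 to 8. Sham replicates 8 and 7 were highest and MI replicate 2 lowest, while Sham replicates 5 and 6 lay among the MI animals. The means were 60.0 ± 15.4 CPM in MI and 73.6 ± 20.2 in Sham (SD, n = 4 each), and the fitted log2 fold change was -0.29 ± 0.24 (SE; edgeR adjusted p = 0.739). It was -0.15 without MI replicate 2 or without Sham replicate 8, and -0.45 without MI replicate 1.

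*Gja1* and *Gata4* are both known from the mesothelium, the cell layer that lines the surfaces of the diaphragm, and mesothelial markers differed widely between these samples. The 7 markers found of 9 listed summed to 228, 55.7, 138 and 264 CPM in MI replicates 1 to 4 and to 151, 172, 185 and 346 CPM in Sham replicates 5 to 8. The library with the lowest sum, MI replicate 2, also had the lowest *Gja1*, and the library with the highest, Sham replicate 8, the highest *Gja1*. Sham replicate 8, MI replicate 4 and MI replicate 1 had the highest sums and also the highest *Gata4*, at 2.58, 4.73 and 2.87 CPM. MI replicate 2, with the lowest sum, had 2.32 CPM of *Gata4*, and MI replicate 3 had the lowest *Gata4*, at 1.95 CPM. Of the markers, 6 were tested, 1 above 0 and 5 below, and their median log2 change was -0.17. That median turned above 0 without MI replicate 2 (0.10) or without Sham replicate 8 (0.11), and it was -0.56 without MI replicate 4. None had an unadjusted p under 0.05. *Msln*, mesothelin, was at -0.47 ± 0.48 and *Krt19* at -0.21 ± 0.52. None of the 7 was at 0 in all libraries. The part of the mesothelium in the *Gja1* and *Gata4* values was not tested.

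**Figure D3:**
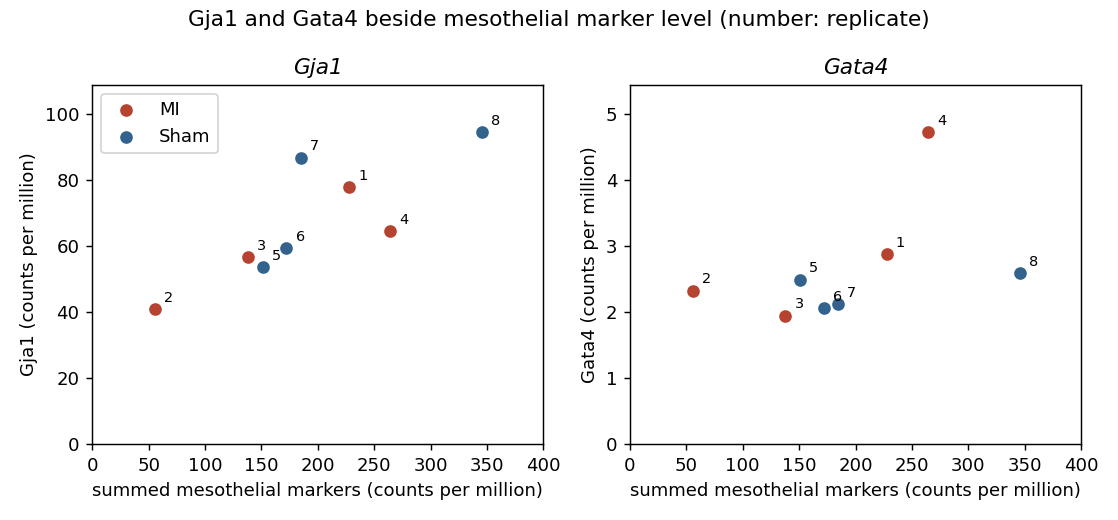
*Gja1* (left) and *Gata4* (right) in CPM against the summed level of 7 mesothelial markers in CPM, 1 point per animal with its replicate number. *Gja1* is lowest in MI replicate 2 (marker sum 55.7) and highest in Sham replicate 8 (346).

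Connexins and junction partners other than *Gja1* had 6 of 13 listed genes tested, 4 above 0 and 2 below, and their median log2 change was 0.12. None had an unadjusted p under 0.05. *Gja7*, the older symbol of the connexin 45 gene *Gjc1*, was at 0.31 ± 0.16, the vascular connexins *Gja4* and *Gja5* at 0.14 ± 0.12 and 0.12 ± 0.16, and the junction scaffold *Tjp1* at 0.13 ± 0.11 (SE, edgeR).

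**Figure D4:**
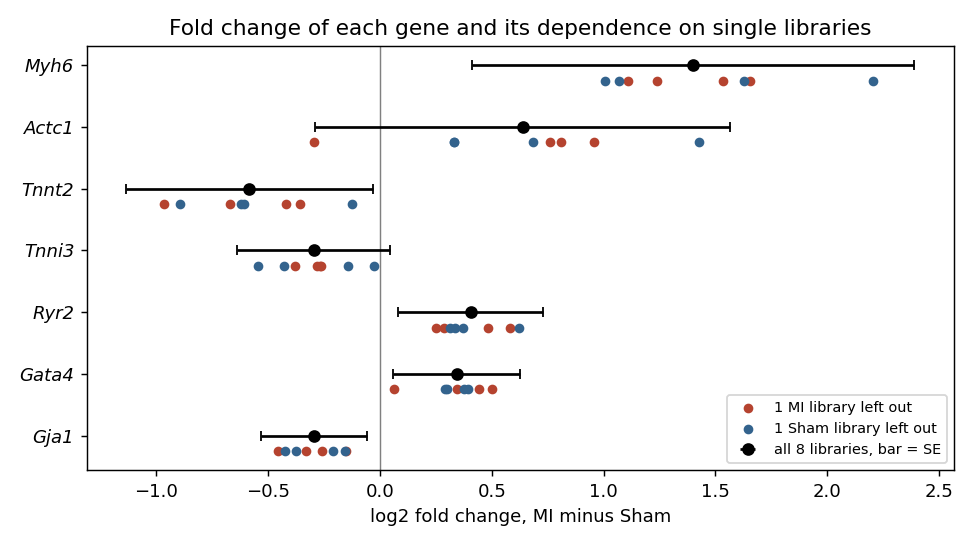
Log2 fold change of MI minus Sham (x axis) for the 7 tested genes, with black points for all 8 libraries, bars for the standard error, and coloured points for the value with 1 MI or 1 Sham library left out. *Actc1* crosses 0 when MI replicate 2 is left out, and *Myh6* runs from 1.01 to 2.20.

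Most other heart genes were at the floor. Of 16 further genes enriched in heart over adult skeletal muscle, 12 were at or under 3 counts in every library. Among them *Myl7*, the atrial myosin light chain, *Irx4*, *Kcne1* and *Lrrc10* were at 0 in all 8, and the cardiac myosin-binding protein gene *Mybpc3*, *Nkx2-5*, *Tbx5*, *Tbx20*, *Hand2*, *Hcn4*, *Bmp10* and *Tnni3k* had 3 counts or fewer. A row at 0 can also reflect how reads were counted, since *Col1a2*, a main fibroblast collagen, was at 0 in all libraries while *Col1a1* was at 136 ± 85.0 CPM in MI and 123 ± 25.4 in Sham (SD, n = 4 each). The summed level of the 16 genes ranged from 18.5 to 40.2 CPM in MI and from 17.2 to 39.4 CPM in Sham.

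Of those heart genes, 3 were tested. *Myl4*, a light chain of atrial and embryonic skeletal muscle, was at 13.8, 14.6, 33.6 and 34.1 CPM in MI replicates 1 to 4 and 31.2, 9.78, 11.4 and 10.2 CPM in Sham replicates 5 to 8 (log2 fold change 0.60 ± 0.49, edgeR adjusted p = 0.740). Like *Myh6*, it had MI replicates 3 and 4 and Sham replicate 5 as its highest libraries, but in Sham replicates 7 and 8 it did not drop as *Myh6* did. *Kcnj3*, a potassium channel, was at 0.23 ± 0.40. *Gcom1*, the row that matched *Myzap* by an older symbol, was lower in every MI animal, at 3.47 ± 0.902 against 6.29 ± 1.21 CPM (SD, n = 4 each; log2 fold change -0.86 ± 0.23, unadjusted p = 0.00337, edgeR adjusted p = 0.601). Over all genes, 4.55% had groups that did not overlap, and 4.47% were lower in MI at an edgeR unadjusted p under 0.05. *Myzap* encodes a junction protein of heart muscle and endothelium, and the *Gcom1* row may hold reads of neighbouring transcripts of the same locus.

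Genes that slow skeletal fibres share with the heart were above the floor in every library, but not all were abundant. *Ankrd1* was as low as 1.80 CPM in MI replicate 1, and *Csrp3* as low as 7.10 CPM in Sham replicate 5. All 12 listed were tested, 9 above 0 and 3 below, and their median log2 change was 0.05. None had an unadjusted p under 0.05. *Myl2* and *Myl3*, slow and ventricular myosin light chains, were at 0.21 ± 0.09 and 0.11 ± 0.12, *Tnnc1*, slow and cardiac troponin C, at 0.15 ± 0.11, the fatty acid carrier *Fabp3* at 0.28 ± 0.13 and the calcium pump *Atp2a2* at 0.08 ± 0.15 (SE, edgeR). The 3 below 0 were *Myh7* at -0.40 ± 0.21, *Csrp3* at -0.48 ± 0.85 and *Myh7b* at -0.22 ± 0.19.

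Embryonic, repair and satellite cell genes were examined because *Actc1*, *Tnnt2* and *Myh6* are also known from forming fibres. Of 11 in the list, 10 were tested, 4 above 0 and 6 below, and their median log2 change was -0.07, and 2 were higher in MI at an unadjusted p under 0.05, beside 3.67% of all genes. These were *Chrng*, the fetal subunit of the acetylcholine receptor, at 1.65 ± 0.589 CPM in MI and 0.929 ± 0.284 in Sham (SD, n = 4 each; 0.91 ± 0.34, edgeR adjusted p = 0.601), and *Chrna1* at 0.36 ± 0.16 (adjusted p = 0.608). The embryonic and perinatal myosins *Myh3* and *Myh8* were at -0.03 ± 0.23 and -0.22 ± 0.31, and the regulators *Myod1* and *Myf6* at -0.42 ± 0.28 and -0.24 ± 0.13.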

How the data were processed

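RNA was extracted from snap-frozen diaphragm with TRI Reagent, and libraries were made with SMARTer ultra-low-input and KAPA Hyper kits, per the labels' protocols. The deposited table holds unnormalized read counts with gene symbols as rows and animals as columns. The submitters' processing notes list STAR 2.5.0a, bcl2fastq, Cufflinks, TopHat and TopHat2, and the build rn5, with no order. Which program counted the reads, on which annotation, and what was done with multiply mapped reads is not given in the sources used here. RefSeq names and promoters come from GRCr8 and are used for names, neighbours and sequence only.

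Genes were tested in R 4.3.3 with edgeR 4.0.16 (filterByExpr, TMM scaling, robust quasi-likelihood F test, two-sided, Benjamini-Hochberg over the 10522 genes that passed). Members that failed the filter are given as counts. Alternatives were RLE factors, library totals, no filter, 1 CPM in 4 libraries, DESeq2 1.42.0, limma-voom 3.58.1, no robust estimation, the animal number range as a term, each library left out, thinned counts, a floor of 10 counts and a prior count of 0.5. The procedure was tested on simulated data. Members and lists were chosen with earlier results of these data known. All 9 members are named, with 8 relatives, of each list up to 4 genes of smallest p and 3 of highest mean, and for each member the 2 genes most alike across libraries. Some genes that this rule picks are not reported here.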

Additional observations from a re-analysis of the deposited data

How the results depend on the processing

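No paired analysis was possible because each animal carries its own replicate number and the groups share none. No member passed an adjusted p of 0.05 under any of the 16 alternatives. The number of all genes that passed was 14 with DESeq2 and 0 to 1 with a library left out. At an unadjusted p under 0.05 the count of all genes was 514 to 1090 with a library left out, the lowest without Sham replicate 7, and the count of members was 1 with limma-voom (*Myh6*) and 0 to 1 with a library left out (*Tnni3* without Sham replicate 6). Of 112 refitted member values, 1 changed sign, *Actc1*, whose log2 fold change ran from -0.29 to 1.43 with a library left out. The cause was not tested. Depth limits *Ryr2*, with 7 to 33 counts a library, and *Gata4*, with 21 to 55, and at this depth *Nppa* and *Nppb* cannot be compared.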

Other observations

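Across the 8 libraries, *Myh6* was most alike in log2 CPM to *Cul4b*, a scaffold of ubiquitin ligases (Pearson r = 0.955, Spearman rho = 0.929), and *Actc1* to *RGD1562865* (r = 0.974, rho = 0.881). *Tnnt2* was most alike to the protease gene *Capn1* (r = 0.961, rho = 0.976) and next to *Casq1*, the fast-fibre calcium buffer (r = 0.951, rho = 0.905). *Tnni3* was most alike to *Gpr157* (r = 0.974, rho = 0.810), *Ryr2* to *RGD1562963* (r = 0.955, rho = 0.976), *Gata4* to *Tada1* (r = 0.969, rho = 0.952) and *Gja1* to *Cybrd1*, a ferric reductase (r = 0.941, rho = 0.952). Each is the highest of 10155 genes searched over 8 libraries, so values of this size are described and not tested. Without the 2 libraries farthest from the median of the member, r was 0.904 for *Cul4b*, 0.944 for *RGD1562865*, 0.919 for *Capn1*, 0.938 for *Gpr157*, 0.956 for *RGD1562963*, 0.811 for *Tada1* and 0.836 for *Cybrd1*.

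Other cell types that a diaphragm sample holds were described by short lists. Smooth muscle markers had all 6 tested genes below 0 (median log2 change -0.26), beside 48.7% of all genes above 0. Of the 6, 1 had an unadjusted p under 0.05, lower in MI, beside 4.47% of all genes in that direction. This was *Actg2* at -0.91 ± 0.39 (SE; edgeR unadjusted p = 0.0412, adjusted p = 0.601; -0.42 without Sham replicate 7). With 1 library left out, *Acta2*, *Tagln* and *Smtn* reached 0.10, 0.04 and 0.009, while *Actg2*, *Myh11* and *Cnn1* stayed below 0. Endothelial markers had 5 of 6 above 0 and a median of 0.05. Fibroblast markers had 4 of 5 above 0 and a median of 0.34, and 3 of the 5 had an unadjusted p under 0.05, all higher in MI, beside 3.67% of all genes in that direction. These were *Lum* at 0.76 ± 0.26, *Fap* at 0.47 ± 0.16 and *Dcn* at 0.34 ± 0.15 (edgeR unadjusted p = 0.0180, 0.0141 and 0.0414; adjusted p = 0.601 for each), and none passed after adjustment over all genes. For all 3, MI replicate 4 was the highest library, and without it the median of the list was 0.20. Among the remaining tested fibroblast markers, *Pdgfra* was below 0, at -0.13 ± 0.15, and *Col1a1* was at 0.14 ± 0.40 (SE, edgeR). Of 6 hepatocyte markers, 0 passed the filter, and *Alb* had 26 counts in MI replicate 4 and at most 8 in any other library. The rest of the list did not follow *Alb* in MI replicate 4. *Serpina1* had 1 count there, and *Apoa1*, *Apoa2*, *Fgb* and *Ttr* had 0.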
